A study of Mus musculus with 23 samples.

Results

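The microRNA miR-671 is described here through both of its mature arms, miR-671-5p and miR-671-3p, which were 2 of the 1915 mature miRNAs listed for every library and were picked out by these names. The libraries hold small RNA of dissected brain tissue from C57BL/6 mice. Of the 23 libraries, 11 came from knockout (KO) mice that lack the Cdr1as locus and 12 from wild type (WT) mice. Each genotype gave 3 libraries of cerebellum, cortex, hippocampus and olfactory bulb, except that knockout hippocampus had 2, which carry the replicate numbers 2 and 3. The labels give no age, no sex and no treatment, and they do not say whether the libraries of a group came from separate mice or whether equal numbers in different regions mark 1 mouse. The p-values therefore measure the spread between these libraries, which may be technical. Each library is a piece of whole tissue, so fewer cells of a type and less RNA per cell cannot be told apart.

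A microRNA hairpin is cut by Dicer into a duplex of its 5′ and 3′ arms, and an arm loaded into an Argonaute protein guides it to RNAs that pair with the seed, the bases near its 5′ end. Most targets pair with little more than the seed, whereas near-complete pairing lets Argonaute2 slice the target. Cdr1as, a circular RNA of neurons, carries numerous seed sites for miR-7 and a site that pairs almost fully with miR-671-5p and allows its slicing. MiR-671-3p is the opposite arm of the same duplex.

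The sequences of both arms, of their hairpin and of the Cdr1as site are shown because the study's knockout removes the site that miR-671-5p pairs with. They are written 5′ to 3′. Capitals mark the seed (bases 2 to 8) in each arm, both mature arms in the hairpin, and the letters that pair with the miR-671-5p seed in the site.
miR-671-5p: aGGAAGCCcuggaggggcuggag
miR-671-3p: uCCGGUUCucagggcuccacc
Mir671 hairpin: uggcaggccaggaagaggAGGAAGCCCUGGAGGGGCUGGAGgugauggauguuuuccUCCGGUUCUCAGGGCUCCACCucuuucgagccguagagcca
Cdr1as site: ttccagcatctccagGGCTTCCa
The arms and the hairpin are RefSeq sequences of GRCm38.p6, where the hairpin spans chr5:24592114-24592211 on the plus strand. The 5p arm has 23 bases (chr5:24592132-24592154) and the 3p arm 21 (chr5:24592171-24592191). In the GENCODE annotation of GRCm38 the hairpin lies inside exon 4 of Chpf2 (chr5:24591069-24593353), a gene for chondroitin chain synthesis, and within the coding part of that exon (chr5:24591069-24592361). A retained-intron transcript of Smarcd3, a gene for a subunit of a chromatin remodelling complex, runs across it on the minus strand. No other mature mouse miRNA in the RefSeq table shared bases 2 to 8 with miR-671-5p or with miR-671-3p (0 of 1738 mature sequences for either arm).

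The Cdr1as site was found by matching miR-671-5p to GENCODE transcripts, and lies in transcripts of C230004F18Rik, a long noncoding RNA gene that RefSeq also lists under the name Cdr1as. It is at chrX:61186029-61186051 (GRCm38, plus strand), 471 bases beyond the end of Cdr1 (chrX:61184005-61185558), the protein-coding gene annotated on the opposite strand. Of the 23 bases of miR-671-5p, counted from 1 at the 5′ end, 19 formed Watson-Crick pairs with this site, bases 15 and 23 formed wobble pairs, and bases 1 and 16 were mismatched. The unbroken run covered bases 2 to 14. The match to the seed alone, GGCTTCC, searched on the transcribed strand, was present in transcripts of 10848 of 55341 annotated genes (19.6%), and the match to the full run of bases 2 to 14 in transcripts of 14 genes. Matching bases over the full length were counted only where that run was present. Among those 14 genes, only C230004F18Rik and Smarcd3, 2 genes in all, had 19 or more, and the Smarcd3 transcript is antisense to the miR-671 hairpin itself. These matches describe letters and were not tested as sites.

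Total counts ranged from 2328929 (knockout cortex, replicate 3) to 13070794 (wild type olfactory bulb, replicate 1), and no pair of libraries of 1 group agreed within sampling noise (chi-square per degree of freedom 28.4 to 242 over 22 pairs). Of the 1915 names, 1459 had a count in some library and 669 passed the filter on low counts, both miR-671 arms among them. Levels are given as CPM, read counts normalised to library size with TMM scaling factors. The Cdr1as RNA itself is not a mature miRNA and was not analysed here. The olfactory bulb type list of 8 miRNAs summed to 218992 to 393962 CPM in knockout and 271194 to 300792 CPM in wild type olfactory bulb, and to at most 6802 CPM in any library of the other regions. The miR-7 guide arms, miR-7a-5p and miR-7b-5p, whose seed pairs with the other sites on Cdr1as, fell over the mean of 4 regions, by 1.07 (SE 0.13, edgeR adjusted p = 1.72e-05) and by 1.22 (SE 0.14, edgeR adjusted p = 1.56e-05) on the log2 scale.

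MiR-671-3p was the more abundant arm in 23 of 23 libraries, with 311 to 1743 counts per library, against 32 to 444 counts of miR-671-5p. These are counts per mature arm, not scaled by length, and the arms differ by 2 bases; capture of small RNAs in library preparation is known to depend on their ends. By mean CPM, miR-671-5p ranked between 299 and 372 among the 669 tested miRNAs over the 8 groups, and miR-671-3p between 173 and 203. Both arms together had 108 ± 4.54 CPM in knockout and 91.4 ± 0.815 CPM in wild type cerebellum, 137 ± 17.0 and 123 ± 16.6 CPM in knockout and wild type cortex, 142 ± 14.8 (n = 2) and 123 ± 12.1 CPM in knockout and wild type hippocampus, and 155 ± 38.5 and 137 ± 15.6 CPM in knockout and wild type olfactory bulb (SD, n = 3 where not given).

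The first comparison asks where in the wild type brain each arm was most abundant. MiR-671-5p was highest in hippocampus. MiR-671-3p had its lowest mean in cerebellum and, with TMM scaling, its highest in olfactory bulb, although it did not differ past the threshold between olfactory bulb and cortex or hippocampus. For miR-671-5p, wild type hippocampus had 28.2, 23.8 and 20.3 CPM and wild type cortex 12.7, 14.8 and 15.5 CPM. Wild type olfactory bulb had 13.6, 11.7 and 12.2 CPM, and wild type cerebellum 11.4, 11.7 and 10.3 CPM. Every hippocampal library was above every library of the other regions, and the ranges of the others lay close to one another. On the log2 scale miR-671-5p was higher in hippocampus by 0.75 than in cortex (SE 0.15, edgeR adjusted p = 0.000925), by 1.11 than in cerebellum (SE 0.15, edgeR adjusted p = 2.40e-06) and by 0.94 than in olfactory bulb (SE 0.15, edgeR adjusted p = 3.18e-05). The same threshold was passed, in the same direction, by 8.37%, 28.3% and 26.6% of the 669 miRNAs in these comparisons. The difference from cortex did not pass when the libraries numbered 1 were left out of all groups (0.54, edgeR adjusted p = 0.0709, chosen after seeing the data). Scaling by library size alone gave 1.79 over cerebellum and 1.85 over olfactory bulb, where all miRNAs had medians of 0.75 and 0.92.

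Among the other regions, miR-671-5p differed by 0.36 between cortex and cerebellum (SE 0.16, edgeR adjusted p = 0.0497), at the edge of the 0.05 threshold and with 31.5% of miRNAs called higher in cortex. The call was lost with DESeq2, limma-voom, RLE factors and without 14 of the 23 single libraries, among them each wild type cerebellar library and wild type cortex replicates 2 and 3. The difference was -0.012 with upper quartile scaling, where all miRNAs had a median of -0.40. Neither cortex against olfactory bulb (0.19, SE 0.16, edgeR adjusted p = 0.312, with 53.2% of miRNAs past the threshold in either direction) nor olfactory bulb against cerebellum (0.17, SE 0.16, edgeR adjusted p = 0.387) passed for this arm. Scaling by library size alone, under which all miRNAs had medians of 0.84 and -0.28 in those comparisons, gave 1.09, past the threshold (edgeR adjusted p = 4.85e-05), and -0.051.

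For miR-671-3p, wild type olfactory bulb had 126, 108 and 139 CPM and wild type cerebellum 79.0, 80.3 and 81.2 CPM. Wild type cortex had 97.2, 127 and 103 CPM, and wild type hippocampus 104, 103 and 89.2 CPM. The cerebellar libraries were the lowest of all 12 wild type libraries, and those of the other regions overlapped. MiR-671-3p was higher by 0.63 in olfactory bulb than in cerebellum (SE 0.18, edgeR adjusted p = 0.00544, background 26.3%) and by 0.44 in cortex than in cerebellum (SE 0.18, edgeR adjusted p = 0.0359). With upper quartile scaling, where all miRNAs had medians of -0.38 and -0.40, these differences were 0.33 and 0.067, neither past the threshold. The second call was also lost without any 1 wild type cerebellar library or wild type cortex replicate 2. Of all miRNAs, 31.5% were called higher in cortex than in cerebellum. No difference of hippocampus passed for this arm: it was 0.30 against cerebellum (edgeR adjusted p = 0.152), -0.14 against cortex (0.650) and -0.33 against olfactory bulb (0.131). Nor did cortex against olfactory bulb pass (-0.19, edgeR adjusted p = 0.383). Scaling by library size alone gave 0.996 for hippocampus over cerebellum (edgeR adjusted p = 2.07e-05), 0.59 for hippocampus over olfactory bulb (edgeR adjusted p = 0.00349) and 0.72 for cortex over olfactory bulb (edgeR adjusted p = 0.000696), so the place of olfactory bulb in the order of this arm turned with the scaling; the medians of all miRNAs there were 0.75, 0.92 and 0.84. Among knockout groups the mean of miR-671-5p was highest in hippocampus (24.3 CPM, n = 2), but the libraries overlapped those of other regions. Knockout hippocampus replicate 3 had 22.0 CPM, below the highest knockout libraries of cerebellum (23.4 CPM) and cortex (23.8 CPM). Differences between knockout regions were not tested.

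**Figure D1:**
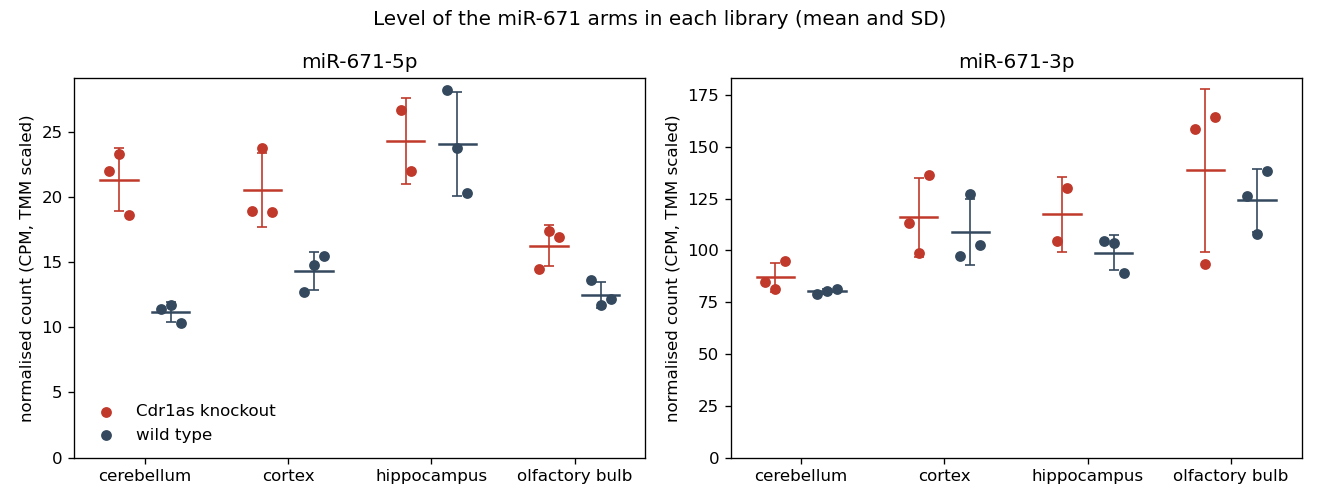
Normalised count (CPM after TMM scaling) of miR-671-5p (left) and miR-671-3p (right) in each library, with knockout left of wild type in every region; points are libraries, long bars group means and whiskers the SD. In cerebellum the knockout libraries of miR-671-5p lie at 18.6 to 23.4 CPM, above the wild type ones at 10.3 to 11.7 CPM, while both genotypes overlap in hippocampus.

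The second comparison asks what the loss of the Cdr1as locus did to each arm. MiR-671-5p rose in knockout cerebellum, where it had 22.0, 23.4 and 18.6 CPM, against 11.4, 11.7 and 10.3 CPM in wild type. The lowest knockout library stood well above the highest wild type one. The group means were 21.3 ± 2.43 CPM in knockout and 11.2 ± 0.752 CPM in wild type (SD, n = 3 each). The log2 change was 0.93 (SE 0.15, 1.90-fold, edgeR adjusted p = 0.00435). It was the only 1 of 669 miRNAs past the threshold in cerebellum (0.149%), with 13 at an unadjusted p under 0.05. With the replicate number as a block it was again past the threshold (0.93, edgeR adjusted p = 0.0134), as 1 of 4 miRNAs. The call was lost without wild type cerebellum replicate 3 (0.86 to 1.02 over all single left-out libraries; edgeR adjusted p up to 0.0622), with the cerebellar libraries fitted alone (0.93, edgeR adjusted p = 0.174), and when the libraries of any 1 replicate number were left out of all groups (0.90 to 0.98; edgeR adjusted p = 0.208, 0.883 and 0.228 without number 1, 2 and 3, chosen after seeing the data).

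In cortex miR-671-5p had 19.0, 23.8 and 18.9 CPM in knockout libraries, against 12.7, 14.8 and 15.5 CPM in wild type libraries. Again the groups did not overlap. The log2 difference of 0.53 (SE 0.15) missed the threshold after adjustment (edgeR adjusted p = 0.122), where 14 miRNAs passed, all lower, and 0.0% were called higher. Upper quartile scaling, under which all miRNAs had a median of 0.12, gave 0.66, which passed (edgeR adjusted p = 0.0363). The cortex libraries also differed in the olfactory bulb type list, drawn from the miR-200 and miR-183 groups, with summed levels of 141 to 445 CPM in knockout and 3676 to 6802 CPM in wild type, all 8 of 8 members detected in both. The part of this difference in the cortex values was not tested.

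In hippocampus the arm did not separate the genotypes. It had 26.7 and 22.0 CPM in knockout libraries, against 28.2, 23.8 and 20.3 CPM in wild type libraries, and both knockout values lay inside the wild type range. The log2 difference was 0.017 (SE 0.16, approximate 95% interval -0.29 to 0.33, edgeR adjusted p = 0.997), and it took a negative sign under library size scaling and without wild type hippocampus replicate 3 or knockout hippocampus replicate 2. In this region edgeR called 0 of 669 miRNAs (39 at an unadjusted p under 0.05), DESeq2 3 and limma-voom 2. The choroid plexus and ciliated epithelium list of 9 miRNAs, all detected, summed to 3301 to 3573 CPM in knockout and 3082 to 13409 CPM in wild type hippocampus; its part in the result was not tested.

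In olfactory bulb miR-671-5p had 14.5, 17.4 and 16.9 CPM in knockout libraries, against 13.6, 11.7 and 12.2 CPM in wild type libraries. The groups did not overlap, by a margin of under 1 CPM. The log2 difference was 0.37 (SE 0.16), not past the threshold (edgeR adjusted p = 1).

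Knockout libraries of miR-671-5p thus lay above all wild type libraries in 3 of 4 regions, cerebellum, cortex and olfactory bulb. Non-overlap with the knockout higher was found in 4.48% of miRNAs in cerebellum, 2.84% in cortex and 3.29% in olfactory bulb, and miR-671-5p was the only miRNA of 669 with it in at least 3 regions (0.149%). Averaged over the 4 regions the arm rose by 0.46 on the log2 scale (SE 0.079, approximate 95% interval 0.31 to 0.62, 1.38-fold, edgeR adjusted p = 0.000753). It was the 1 miRNA called higher in that average (0.149%), beside 9 called lower (1.35%; 1.49% in either direction), and 39 had an unadjusted p under 0.05. No single left-out library ended the call (0.42 to 0.50), but leaving out all libraries numbered 2 (0.36, edgeR adjusted p = 0.273) or numbered 3 (0.48, edgeR adjusted p = 0.0625) did, both chosen after seeing the data. The 4 regional changes spanned 0.91, and the test of that difference did not pass (edgeR adjusted p = 0.261; 1.64% of miRNAs passed), so the effect is not shown to differ between regions.

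**Figure D2:**
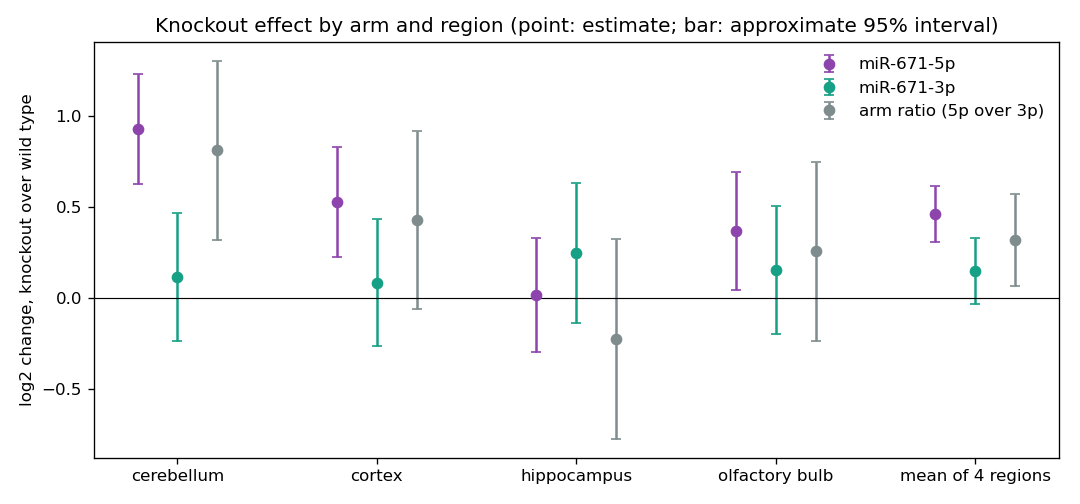
Log2 change, knockout over wild type, of miR-671-5p, of miR-671-3p and of the ratio of the arms in each region and averaged over the 4 regions; points are estimates and bars are approximate 95% intervals from its SE. MiR-671-5p lies at 0.93 in cerebellum and at 0.017 in hippocampus, whereas miR-671-3p stays between 0.086 and 0.25.

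MiR-671-3p did not pass the test in any region or in the average. In cerebellum it had 84.8, 81.4 and 94.8 CPM in knockout libraries, against 79.0, 80.3 and 81.2 CPM in wild type libraries. The groups did not overlap, as in 4.48% of miRNAs with the knockout higher, but less than 1 CPM lay between them. In cortex it had 113, 98.6 and 137 CPM in knockout and 97.2, 127 and 103 CPM in wild type libraries, and the ranges overlapped. In olfactory bulb it had 159, 93.5 and 164 CPM in knockout and 126, 108 and 139 CPM in wild type libraries, so that the knockout group held both the lowest and the highest values. In hippocampus it had 105 and 130 CPM in knockout and 104, 103 and 89.2 CPM in wild type libraries. These groups did not overlap, as in 8.07% of miRNAs with the knockout higher, but lay apart by under 1 CPM. The log2 difference was 0.12 for cerebellum, 0.086 for cortex, 0.25 for hippocampus and 0.15 for olfactory bulb (SE 0.18 to 0.20), with edgeR adjusted p-values of at least 0.997. In hippocampus it was 0.054 without knockout replicate 3 and 0.40 without knockout replicate 2, and in cerebellum 0.051 without knockout replicate 3. Over the mean of 4 regions the difference was 0.15 (SE 0.092, approximate 95% interval -0.029 to 0.33, edgeR adjusted p = 0.880). Its sign was positive in all 4 regions, as it was for 50 of 669 miRNAs (7.47%), miR-671-5p among them.

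**Figure D3:**
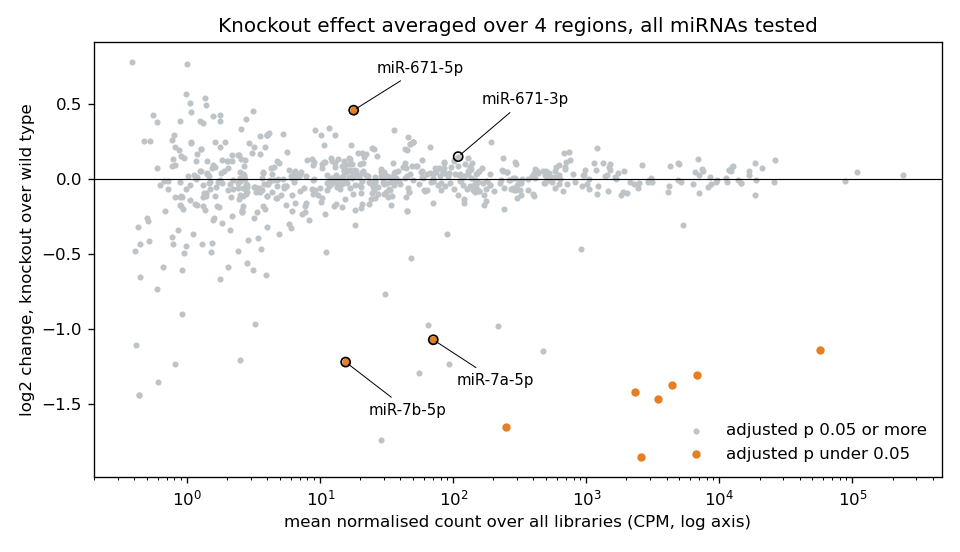
Log2 change averaged over the 4 regions, knockout over wild type, against mean normalised count (CPM, log axis) for the 669 miRNAs tested; orange points passed an edgeR adjusted p of 0.05. MiR-671-5p at 0.46 is the only orange point above 0, miR-671-3p at 0.15 is grey, and miR-7a-5p and miR-7b-5p lie at -1.07 and -1.22.

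The third comparison concerns the balance of the arms, in which the scaling of a library cancels. Over all 23 libraries miR-671-5p made up 8.06% to 22.3% of miR-671 counts. The mean log2 ratio of 5p to 3p counts, with 0.5 added to each, was -2.63, the value 64th from the lowest among 198 precursors with both arms tested, between miR-542 (-2.67) and miR-3068 (-2.62). The 3p arm was the larger in 99 of those 198 precursors.

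In cerebellum the 5p share was 20.6%, 22.3% and 16.4% in knockout libraries, against 12.6%, 12.8% and 11.3% in wild type libraries. The groups did not overlap, as in 4.04% of precursors with the knockout higher, and the 95% Wilson interval of knockout replicate 3 (14.2% to 18.9%) overlapped that of wild type replicate 2 (10.6% to 15.2%). Such intervals cover counting error only. In cortex the share was 14.4%, 19.5% and 12.2% in knockout and 11.6%, 10.4% and 13.1% in wild type libraries. In hippocampus it was 20.3% and 14.4% in knockout and 21.3%, 18.7% and 18.5% in wild type libraries. In olfactory bulb it was 8.36%, 15.7% and 9.33% in knockout and 9.75%, 9.77% and 8.06% in wild type libraries. The genotypes overlapped in those last 3 regions.

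The log2 ratio differed between genotypes by 0.81 in cerebellum (SE 0.25), by 0.43 for cortex (0.21 without knockout cortex replicate 2), by -0.22 for hippocampus and by 0.26 for olfactory bulb. None of these passed over the 198 precursors (limma adjusted p = 0.767, 0.994, 0.999 and 0.976 in that order of regions), and 0.0% of precursors passed in cerebellum, hippocampus, olfactory bulb and the average, against 1.52% in cortex. The exact permutation p in cerebellum was 0.1, the smallest that 3 against 3 libraries allow. Averaged over regions the ratio differed by 0.32, 1.25-fold, with an exact two-sided permutation p of 0.0421 over 80000 exchanges of genotype within regions. It did not pass in limma over all precursors (adjusted p = 0.842), nor in exact permutations within numbered pairs (0.34, p = 0.0527) or among replicate numbers (p = 0.2 over 20 arrangements). Leaving out 1 library ended the call in 13 of 23 cases (exact permutation p up to 0.151; 0.24 to 0.39 over all 23). Among knockout libraries these were cerebellum 1 and 2 and number 2 of cortex, hippocampus and olfactory bulb. Among wild type libraries they were all of cerebellum, cortex 1 and 2, hippocampus 2 and 3, and olfactory bulb 3.

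Equal replicate numbers went with high shares among knockout libraries. The knockout library numbered 2 had the highest 5p share of its group in 4 of 4 regions (15.7% to 22.3%), and the one numbered 3 the lowest in 3 of 4. Knockout hippocampus had only numbers 2 and 3, so there both statements rest on the same comparison. Among wild type libraries number 2 was highest in 2 regions, and numbers 1 and 3 in 1 region each. Without the libraries numbered 2, in both genotypes, the averaged ratio differed by 0.073 (exact permutation p = 0.679), against 0.41 without number 1 (exact permutation p = 0.0617) and 0.48 without number 3 (exact permutation p = 0.0293), all chosen after seeing the data. Across all miRNAs, deviations from the group mean in libraries of 1 number correlated weakly between regions (median r 0.054 in knockout and 0.045 in wild type). For pairs of unlike numbers the median r was -0.031 in knockout and -0.027 in wild type, and the ranges overlapped. Whether a number marks a mouse was not tested beyond that.

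**Figure D4:**
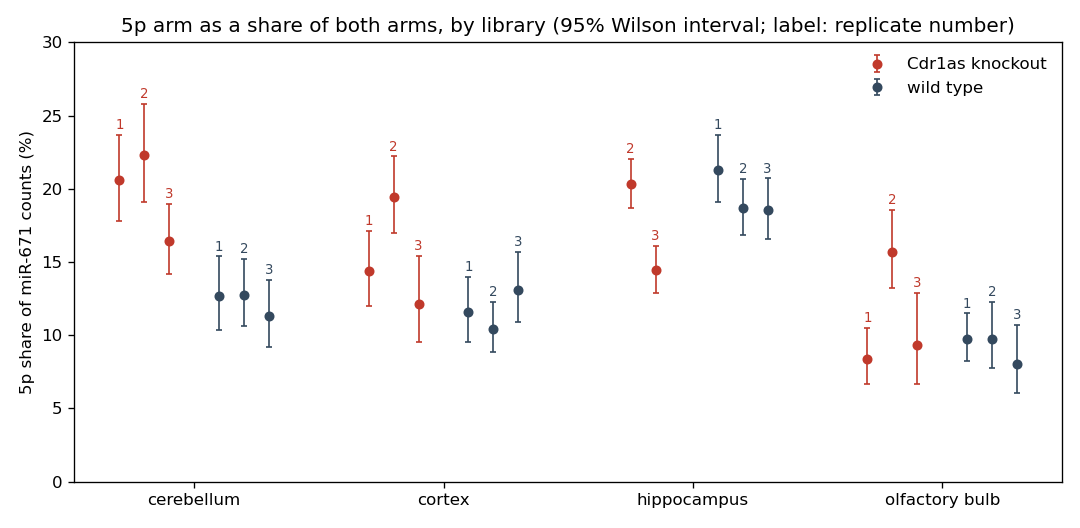
Share of miR-671-5p in all miR-671 counts (%) for each library, knockout left of wild type in each region, with 95% Wilson intervals and the replicate number above each point. Knockout number 2 is the highest of its group in all 4 regions, at 15.7% to 22.3%, with only 2 knockout libraries in hippocampus. The wild type hippocampal libraries lie at 18.5% to 21.3%.

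Between wild type regions the 5p share was 19.5% ± 1.55 in hippocampus, 12.2% ± 0.826 in cerebellum, 11.7% ± 1.34 in cortex and 9.20% ± 0.982 in olfactory bulb (SD, n = 3 each). The log2 ratio was higher in hippocampus than in olfactory bulb by 1.25 (SE 0.25, limma adjusted p = 0.00129, with 6.57% of precursors called higher) and than in cortex by 0.87 (SE 0.25, limma adjusted p = 0.0342, background 2.53%). The second call was lost with a variance prior without trend (limma adjusted p = 0.0506) and without any 1 of the wild type cortex or hippocampus libraries (limma adjusted p up to 0.121). Against cerebellum the difference was 0.79 (SE 0.25, limma adjusted p = 0.0504), just outside the threshold, which 8.08% of precursors passed in either direction. The ratios of cortex, cerebellum and olfactory bulb did not differ past it (differences -0.077, 0.38 and -0.46; limma adjusted p = 0.867, 0.399 and 0.202 for cortex against cerebellum, cortex against olfactory bulb and olfactory bulb against cerebellum), where 17.2%, 5.05% and 18.7% of precursors passed in either direction.

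The arms did not vary together. Over the 8 group means their log2 CPM correlated at r = 0.089, and over the 23 libraries their deviations from the group means correlated at r = -0.24, where both arms share a library's depth and scaling. Among 409 other miRNAs with a mean of at least 10 CPM, miR-671-3p ranked 182nd in likeness to miR-671-5p, and miR-671-5p ranked 177th in likeness to miR-671-3p. The miRNAs most like miR-671-5p over the 8 group means were miR-1224-3p (r = 0.81), miR-29a-5p (0.76), miR-1843b-3p (0.75), miR-324-3p (0.74) and miR-191-3p (0.74). Those most like miR-671-3p were miR-3061-3p (0.97), miR-676-5p (0.97), miR-342-5p (0.95), miR-184-3p (0.95) and miR-7224-3p (0.93).

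The spread between libraries was set beside the counting error. Counting error alone gives coefficients of variation of 5.45% to 13.5% for this arm, and the observed values within groups were 6.73% to 16.5%, at or under the counting error in 3 of 8 groups. In hippocampus the observed values, 13.6% in knockout and 16.5% in wild type, were above the counting errors of 5.45% in knockout and 6.10% in wild type. For miR-671-3p counting error gives 2.45% to 4.56%, and the observed values reached 28.3%, in knockout olfactory bulb, with 1 of 8 groups at or under it.

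Of the miRNAs linked to Cdr1as by binding, miR-671-5p and the miR-7 guide arms moved in opposite directions over the mean of 4 regions. This did not hold past the threshold region by region. In hippocampus miR-671-5p changed by 0.017, and in cerebellum, where miR-671-5p passed, neither guide arm did (edgeR adjusted p = 0.325 for both). Of the 5 miR-7 arms, all tested, 0 passed as higher in any region in edgeR, DESeq2 or limma-voom. As lower in edgeR, 0 passed in cerebellum, 2 in cortex (2.09% of all miRNAs), 0 in hippocampus and 1 in olfactory bulb (0.149%). The guide arms just missed the threshold in hippocampus (edgeR adjusted p = 0.0509 for both). In hippocampus 2 passed as lower by DESeq2 (0.448% of all miRNAs) and 2 by limma-voom (0.299%), and in cerebellum 0 by either. With the replicate block in edgeR 2 passed as lower in each of the 4 regions, where 0.448%, 2.09%, 0.299% and 0.299% of all miRNAs were called lower in cerebellum, cortex, hippocampus and olfactory bulb. The median log2 change of the 5 was -0.63 for cerebellum, -0.97 for cortex, -0.22 for hippocampus and -0.85 for olfactory bulb. Medians of all 669 miRNAs lay between -0.019 and 0.022. In each region the median of the 5 was the value of miR-7b-3p, whose group means were only 0.66 to 2.75 CPM. This arm had 2 to 13 counts in knockout cortex and 1 to 8 in knockout olfactory bulb libraries. Both guide arms lay below that median in every region, in hippocampus at -1.31 (miR-7a-5p) and -1.26 (miR-7b-5p). MiR-7a-5p had 20.3 ± 3.63 CPM in knockout and 38.0 ± 3.38 CPM in wild type cerebellum (SD, n = 3 each), and in hippocampus 56.2 ± 21.2 CPM in knockout (n = 2) and 139 ± 24.5 CPM in wild type (n = 3). Its knockout libraries lay below all wild type libraries in each of the 4 regions, as did 2.54% of all miRNAs in cerebellum, 4.78% for cortex, 8.82% for hippocampus and 3.14% for olfactory bulb. None of the 3 miR-7 3p arms passed in any region. In cerebellum miR-7a-1-3p, at 55.0 CPM in knockout and 57.3 CPM in wild type, was more abundant than miR-7a-5p. MiR-7a-1-3p differed by -0.059, 0.22, 0.089 and -0.035 in cerebellum, cortex, hippocampus and olfactory bulb, and miR-7a-2-3p by -0.025, -0.17, -0.13 and 0.063. MiR-7b-3p differed by -0.63, -0.97, -0.22 and -0.85 in the same order (-0.67 on average, edgeR adjusted p = 0.258), with knockout libraries below all wild type libraries in cerebellum and cortex. Knockout libraries of miR-7a-1-3p lay above all wild type libraries in cortex (22.4 to 24.2 against 18.1 to 22.1 CPM), as did those of 2.84% of miRNAs.

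In cerebellum, where miR-671-5p passed, the ranges of the marker lists of other cell types overlapped between genotypes. The part of cell composition in that result was not tested. The microglia and leukocyte list, 4 of 4 detected, was 840 to 913 CPM in knockout and 720 to 851 CPM in wild type. The oligodendrocyte list, 3 of 3 detected, was 1905 to 2049 CPM in knockout and 1992 to 2267 CPM in wild type. The summed neuron list, all 3 of 3 detected, was 156422 to 162955 CPM in knockout and 144064 to 173433 CPM in wild type. The red blood cell list, 5 of 5 detected, was 67784 to 76600 CPM in knockout and 64014 to 94238 CPM in wild type. The choroid plexus list, 9 of 9 detected, was 10391 to 14381 CPM in knockout and 11180 to 18759 CPM in wild type, and the olfactory bulb type list, 8 of 8, was 551 to 1130 CPM in knockout and 876 to 1133 CPM in wild type.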

How the data were processed

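Per the labels' protocols, TRIZOL was used for total RNA and a TruSeq Small RNA kit for the libraries. The tables the authors deposited, 1 for each library, hold whole-number read counts of mature miRNAs without normalization. The submitters' processing notes name the build mm9; aligner, counting rules and miRNA annotation were not given in the sources used here. Coordinates printed are of GRCm38, from RefSeq and GENCODE. The miR-671 arms and all lists were chosen with earlier results of these data known. Named miRNAs were both arms, the 5 miR-7 arms, seed sharers, the 5 nearest neighbours of each arm over group means and the precursors adjacent in arm ratio.

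Counts were fitted over all 669 miRNAs passing filterByExpr (minimum count 10, minimum total 15) with edgeR 4.0.16 quasi-likelihood F tests (R 4.3.3), TMM scaling and 1 mean per region and genotype over all 23 libraries, two-sided, with Benjamini-Hochberg adjustment and a threshold of 0.05. Arm ratios, log2 with 0.5 added, were fitted with limma 3.58.1 over 198 precursors and tested by exact permutation of genotype within regions. Shares have 95% Wilson intervals. The fits were tested on simulated data, and the outcome is not given here. Deviations from the group mean in same-numbered knockout and wild type libraries correlated at r = 0.12, 0.37 and 0.10 in cerebellum and at -0.22 to 0.14 elsewhere. For pairs of unlike numbers r was -0.38 to 0.19 in cerebellum and -0.22 to 0.26 elsewhere, so the ranges overlapped. Alternatives were other scalings, no filter, DESeq2 1.42.0, limma-voom, the region alone, a replicate block and left-out libraries.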

Additional observations from a re-analysis of the deposited data

How the results depend on the processing

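Leaving the left-out libraries aside, 264 of the values recomputed under alternatives kept their direction and their side of the threshold (or moved by under 1.5 times, for counts), 7 reversed and 13 counts moved further. Past the threshold, 12 calls were lost and 6 gained, of which 1 lost and 2 gained also reversed. The causes were not tested. For the knockout, miR-671-5p lost its call in cerebellum with that region fitted alone (0.93), gained one in cortex with upper quartile scaling (0.66) and was -0.058 in hippocampus by library size alone. Between wild type regions, miR-671-5p in cortex over cerebellum was 0.38 with RLE factors, 0.38 with DESeq2, 0.36 with limma-voom and 0.41 without filter, none past the threshold, and -0.012 with upper quartile scaling. Upper quartile scaling gave -0.13 for miR-671-5p in olfactory bulb over cerebellum. For miR-671-3p it gave 0.10 in hippocampus over cortex, 0.067 in cortex over cerebellum and 0.33 in olfactory bulb over cerebellum. All miRNAs had medians there of 0.27 in hippocampus over cortex, -0.40 in cortex over cerebellum and -0.38 in olfactory bulb over cerebellum. Library size alone, under which all miRNAs had medians of 0.66 to 0.92 in hippocampus or cortex over cerebellum or olfactory bulb, gave miR-671-5p 1.09 in cortex over olfactory bulb and -0.051 in olfactory bulb over cerebellum. It gave miR-671-3p 0.996 in hippocampus over cerebellum, 0.59 in hippocampus over olfactory bulb and 0.72 in cortex over olfactory bulb, all past the threshold. The wild type arm ratio of hippocampus over cortex was 0.87 and lost its call without trend, and that of hippocampus over cerebellum was 0.79 and gained one with 1 added. The averaged knockout arm ratio (0.32) lost its call in limma and with genotype exchanged among replicate numbers, and with the replicate block (0.34, exact permutation p = 0.0527). Called miRNAs without filter, by DESeq2, with the region alone and with the replicate block numbered 12, 3, 0 and 4 in cerebellum, and without filter, with the region alone and with the block 4, 0 and 2 in olfactory bulb. In hippocampus they numbered 20 without filter, 3 by DESeq2 and 2 by limma-voom, by limma-voom with numbers as mice and with the block, and in the average 21 without filter. The block changed no other call of the miR-671 arms (0.93 in cerebellum, edgeR adjusted p = 0.0134).

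With single libraries, or all libraries of a replicate number (chosen after seeing the data), left out, values ranged as follows. The knockout change of miR-671-5p was 0.86 to 1.02 in cerebellum, -0.14 to 0.15 in hippocampus and 0.36 to 0.53 on average, and that of miR-671-3p 0.051 to 0.16 in cerebellum, -0.041 to 0.32 in cortex, 0.020 to 0.43 in hippocampus and -0.026 to 0.37 in olfactory bulb. Wild type miR-671-5p was 0.54 to 0.88 in hippocampus over cortex and 0.24 to 0.46 in cortex over cerebellum. Wild type miR-671-3p was -0.45 to -0.22 in hippocampus over olfactory bulb, 0.32 to 0.52 in cortex over cerebellum and 0.55 to 0.74 in olfactory bulb over cerebellum. The knockout change of the arm ratio was 0.12 to 0.70 in cortex, -0.56 to 0.074 in hippocampus, -0.053 to 0.51 in olfactory bulb and 0.073 to 0.48 on average. The wild type arm ratio was 0.71 to 0.87 in hippocampus over cerebellum, 0.78 to 1.01 in hippocampus over cortex and -0.24 to 0.049 in cortex over cerebellum. Called miRNAs numbered 0 to 1 in cerebellum, 0 to 8 in hippocampus, 0 to 3 in olfactory bulb and 2 to 13 on average. MiR-671-5p had 32 to 444 counts per library, and its counting error alone reached 13.5%.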
